A study of Mus musculus with 6 samples.

Results

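The 10 genes described here belong to the exocrine pancreas, the part of the organ that makes digestive juice. Ptf1a encodes the transcription factor that specifies and maintains its acinar cells. The other members encode the elastases Cela1, Cela2a and Cela3b, the carboxypeptidases Cpa1 and Cpb1, chymotrypsinogen (Ctrb1), a trypsinogen (Prss2), pancreatic lipase (Pnlip) and the lipase cofactor colipase (Clps). They were picked by gene symbol, a rule that used no measured value, although earlier results of these data were known when the list was made. All 10 had a promoter window among the 27095 windows of the series, and all 10 passed the filter on low counts, which left 24817 windows for testing.

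Acinar cells store digestive proteins in granules, the proteases among them as inactive precursors, and release them into the gut after a meal. PTF1A acts in a trimer with an E protein and an RBPJ-type subunit, RBPJL in mature acinar cells, and that complex turns on the digestive enzyme genes. In the thymus, medullary thymic epithelial cells (mTECs) express many genes of distant tissues at low frequency, pancreatic enzymes among them, so that developing T cells meet these proteins as self-antigens.

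Promoter accessibility was measured by ATAC-seq, in which the transposase Tn5 cuts and tags open DNA, in mTECs with high surface MHC class II. The 3 wildtype libraries came from C57BL/6 mice, and the 3 knockout libraries came from Kat7 knockout mice on that background, each library from its own biological replicate. KAT7 is a histone acetyltransferase that modifies the tail of histone H3. For the mice, the sources used here give no age, no sex, no extent or driver of the deletion and no statement on pooling of animals. The comparison asks which promoters change in accessibility when KAT7 is missing, and a change in bulk cells cannot tell fewer cells with an open promoter from less access per cell.

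Library totals lay between 15482439 and 19832326 counts (exact two-sided permutation p = 0.7 between groups; no p under 0.1 is possible with 3 against 3). The Kat7 window held 5672, 3729 and 4606 counts in wildtype libraries 1, 2 and 3 and 208, 221 and 627 in the knockout libraries, so all 3 libraries labelled knockout were low. Its log2 fold change was -3.66 (SE 0.574, adjusted p = 0.0143), and the adjusted p was 0.0643 without wildtype library 1 and 0.0565 without wildtype library 3. Windows of 14 mTEC marker genes summed to 2408 to 2491 counts scaled to a common library total (CPM) per wildtype library and to 2257 to 2740 CPM per knockout library, with 1 lower and 1 higher. Aire, the regulator through which mTECs express many self-antigens, did not pass (73.9 ± 3.03 and 63.3 ± 5.84 CPM, log2 difference -0.22, adjusted p = 0.149), although its 3 knockout libraries lay below all 3 wildtype libraries. Its window shares bases with another, marked below as overlapping. The Aire window passed as lower in 8 of 16 alternatives, with adjusted p = 0.00110 with library totals, 0.00167 under loess, 0.00105 in limma-voom, 0.0114 with no count filter and 0.0100 under a mean-count minimum of 50. Leaving out wildtype library 2, wildtype library 3 or knockout library 1 gave 0.0495, 0.0409 and 0.00361. Markers of other cells were not at 0. Thymocyte windows (8 genes, 2 of 7 tested higher) summed to 32.1 to 36.2 CPM in wildtype and 40.5 to 43.2 CPM in knockout, and B cell windows (5 genes, 3 lower) to 57.2 to 58.3 CPM and 36.4 to 38.1 CPM. Mesenchymal windows (6 genes, 3 lower and 2 higher, from Col1a2 at -1.34 to Dcn at 0.89) summed to 125.8 to 132.5 CPM and 108.5 to 110.8 CPM. Endothelial windows (5 genes, 2 lower, with Kdr at -1.37, and 1 higher, Tek at 0.72) gave 41.1 to 44.1 CPM and 33.8 to 36.5 CPM. Myeloid and dendritic windows (8 genes, 3 lower, with Csf1r at -0.80, and 2 higher, Cd14 and Zbtb46, both at 0.32) gave 220.2 to 227.4 CPM and 233.9 to 285.2 CPM. Cortical epithelial windows (6 genes, 1 lower, Ccl25 at -0.42, and 2 higher, Psmb11 at 0.53 and Dll4 at 0.46) gave 194.8 to 210.8 CPM and 195.9 to 227.9 CPM. Erythroid windows (4 genes, 1 lower) gave 129.1 to 141.0 CPM and 103.0 to 120.7 CPM. Of all tested windows, 20.2% were lower and 6.36% higher. The part of these other cells in the results below was not tested.

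The proximal promoters are shown first, since these bases lie inside the counted windows. They were searched for short motifs, among them those of acinar factors, and not every motif occurs in each promoter. For 4 members whose windows changed and for Cpa1, which holds 2 of the motifs close together and did not pass, the 250 bases before the gene start are printed 5′ to 3′ on the strand of the gene (RefSeq, GRCm38.p6, the assembly that mm10 names). Capitals mark, on either strand, the E-box CANNTG, the core TTCCCA (or TGGGAA) of RBPJ-type sites, and the TATA box TATAAA.
Ptf1a, chr2:19445413-19445662, plus strand: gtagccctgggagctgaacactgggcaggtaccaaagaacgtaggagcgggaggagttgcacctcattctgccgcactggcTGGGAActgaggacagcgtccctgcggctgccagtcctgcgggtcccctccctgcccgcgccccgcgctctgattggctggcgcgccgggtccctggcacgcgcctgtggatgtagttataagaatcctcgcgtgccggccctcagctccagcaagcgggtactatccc
Cela1, chr15:100687921-100688170, minus strand: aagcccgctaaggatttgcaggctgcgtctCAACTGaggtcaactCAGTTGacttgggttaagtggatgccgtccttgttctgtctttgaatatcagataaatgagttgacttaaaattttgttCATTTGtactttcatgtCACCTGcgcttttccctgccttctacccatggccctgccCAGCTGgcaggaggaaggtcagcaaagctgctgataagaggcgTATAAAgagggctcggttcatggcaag
Ctrb1, chr8:111691011-111691260, minus strand: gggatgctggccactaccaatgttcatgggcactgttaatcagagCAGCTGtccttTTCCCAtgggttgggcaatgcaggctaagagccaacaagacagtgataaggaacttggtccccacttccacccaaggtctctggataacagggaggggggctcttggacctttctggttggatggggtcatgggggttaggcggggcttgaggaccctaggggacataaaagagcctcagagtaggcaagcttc
Prss2, chr6:41521526-41521775, plus strand: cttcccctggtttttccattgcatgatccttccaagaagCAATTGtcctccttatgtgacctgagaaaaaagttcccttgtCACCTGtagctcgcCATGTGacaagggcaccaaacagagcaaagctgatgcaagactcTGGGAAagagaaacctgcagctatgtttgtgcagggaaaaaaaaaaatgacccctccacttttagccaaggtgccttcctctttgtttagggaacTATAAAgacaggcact
Cpa1, chr6:30638968-30639217, plus strand: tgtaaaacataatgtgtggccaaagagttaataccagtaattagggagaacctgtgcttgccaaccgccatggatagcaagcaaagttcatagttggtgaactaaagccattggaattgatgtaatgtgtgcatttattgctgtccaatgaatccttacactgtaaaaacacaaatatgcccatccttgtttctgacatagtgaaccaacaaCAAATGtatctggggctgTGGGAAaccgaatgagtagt

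The promoter table held 9 of the 10 members, all but Clps. An E-box CANNTG stood in 7 of these 9, against 66.2% of all 32851 promoters of that table over the same 250 bases, and TTCCCA in 6 of 9, against 21.6%. The E-box form CACCTG, one of those CANNTG covers, stood in 5 of 9, against 17.2%. Both CANNTG and TTCCCA with starts at most 35 bases apart were found in Cela2a, Cpa1 and Ctrb1, with starts 34, 18 and 11 bases apart, against 6.56% of all promoters. Of these 3 only the Ctrb1 window passed. Only exact letters were matched, so TTCCCT, which lies near CACCTG in the Cela1 and Prss2 bases printed above, was not counted. Which members hold the pair thus depends on the letters searched for. Whether the pair bears on the change was not tested. TATAAA stood 27 bases before the start of Cela1, 16 before that of Prss2 and 30 before that of Pnlip, against 12.4% of all promoters with one. Ptf1a stood apart from the enzymes in base composition. Its 250 bases held 66.0% G and C with an observed-to-expected CpG ratio of 0.698, whereas the 8 enzyme promoters had 33.6% to 54.8% and ratios of 0.0551 to 0.525 (medians of all promoters 52.4% and 0.373).

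In the knockout cells, the Ptf1a promoter and those of Cela1, Ctrb1 and Clps were less accessible, that of Prss2 was more accessible, a call that most alternatives did not keep, and the other 5 did not pass. Thus 4 of 10 members fell, where 20.2% of all tested windows fell, and 1 rose, where 6.36% of all did. Of all calls 23.9% were gains, and that share was 35.6% when only library totals were used for scaling and 47.0% under loess. The members' windows were thinly covered, with 14 to 234 counts per library, and all lay in the lower part of the accessibility ranking, at percentiles 17.6 to 48.6 of tested windows. Direction across the series differed with that rank. In the second quartile, which held 7 members and all 5 that changed, 32.5% of windows fell and 4.58% rose. In the first quartile, which held Cpa1, Cpb1 and Pnlip, 1.35% fell and 2.26% rose. The members' median log2 fold change was -0.21, beside 0.04 over all tested windows, -0.27 in the second quartile and 0.37 in the first. The 4 losses among 7 members of the second quartile were not tested against that quartile, and nothing particular to pancreatic genes is read from them.

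**Figure D1:**
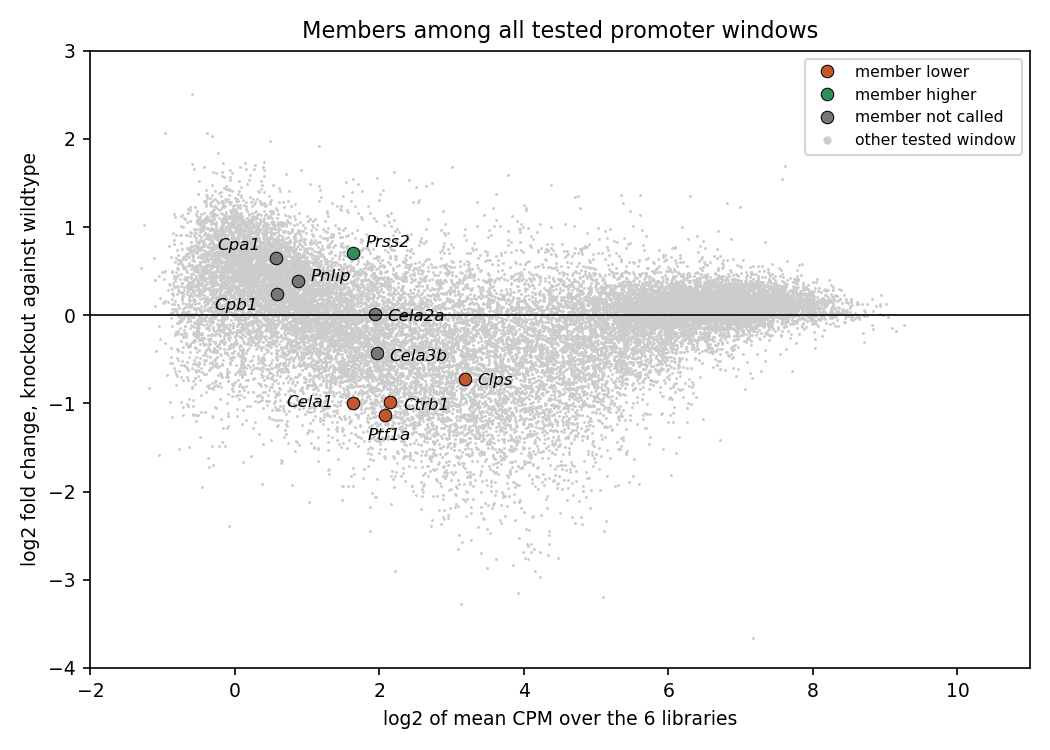
Log2 fold change (knockout against wildtype) against the log2 of mean CPM over the 6 libraries, for all 24817 tested windows (grey) and the 10 members (coloured by call). The members lie at low accessibility, and the 4 that fell sit in the range where many other windows fell.

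Ptf1a encodes the acinar fate factor, and its window fell. The window (chromosome 2, 19442663 to 19447501, mm10) holds the whole gene of 1839 bases and 3000 bases before it. Accessibility was 6.61, 5.11 and 5.55 CPM in wildtype libraries 1, 2 and 3 and 1.72, 3.40 and 2.81 CPM in the knockout libraries. Every knockout library thus lay below every wildtype library. The means were 5.76 ± 0.770 and 2.65 ± 0.855 CPM (SD, n = 3 per group), a 2.19-fold decline (log2 fold change -1.13, SE 0.235, adjusted p = 1.32e-05). It passed in all 16 alternatives, with log2 fold changes from -1.35 to -0.81 and adjusted p from 1.01e-05 to 0.00328.

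The serine proteases did not move together. Cela1 encodes an elastase, which cuts after small residues, and its window (chromosome 15, 100685920 to 100690920) had 3.84, 3.96 and 4.55 CPM in the wildtype and 1.55, 2.03 and 2.63 CPM in the knockout libraries. The groups did not overlap, and the means of 4.12 ± 0.378 and 2.07 ± 0.542 CPM differed 1.99-fold (log2 fold change -0.99, SE 0.284, adjusted p = 0.00264; 0.0600 without wildtype library 3). Ctrb1, the precursor of chymotrypsin, which cuts after aromatic residues, showed 4.66, 6.33 and 6.73 CPM across wildtype and 2.12, 3.05 and 3.79 CPM in knockout libraries (chromosome 8, 111689010 to 111694010). All 3 knockout libraries were again the lower ones, with means of 5.91 ± 1.10 and 2.99 ± 0.837 CPM (log2 difference -0.98, SE 0.227, adjusted p = 0.000110).

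The other elastases did not pass. Cela2a (chromosome 4, 141824003 to 141829003) averaged 3.80 ± 0.389 CPM in wildtype cells and 3.84 ± 0.798 CPM without KAT7, with a log2 fold change of 0.01 and a 95% interval of -0.47 to 0.49, so that a 2-fold change in either direction lay outside the interval. Cela3b, on the same chromosome at 137428520 to 137433520, had 4.46 ± 0.361 and 3.32 ± 0.854 CPM. Its groups overlapped, and its log2 fold change of -0.42 (interval -0.90 to 0.05, adjusted p = 0.199) was below 0 in all 16 alternatives and passed in none.

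Prss2, a trypsinogen whose active form switches on the other enzyme precursors, was the member that rose. Its window (chromosome 6, 41518776 to 41523776) had 1.79, 2.05 and 3.25 CPM in wildtype libraries 1, 2 and 3 and 4.13, 3.34 and 4.04 CPM in the knockout libraries. The lowest knockout library lay just above the highest wildtype library. The means were 2.36 ± 0.778 and 3.84 ± 0.428 CPM (log2 difference 0.70, SE 0.281, adjusted p = 0.0476). This call was weak, since it passed in 6 of 16 alternatives, with adjusted p from 0.00752 to 0.280, although the value was above 0 in all 16. DESeq2 gave an adjusted p of 0.0536 and library totals 0.124. Without wildtype library 1 or 2 it was 0.280 and 0.260, and without knockout library 1, 2 or 3 it was 0.0535, 0.0723 and 0.109.

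Trypsinogen genes lie within the T cell receptor beta locus. Among 6 of them with windows there (Try4, Try5, Try10, Prss3, Prss1 and Prss2), all 6 log2 fold changes were above 0, and Prss2 alone passed in edgeR. In limma-voom Prss1 passed (0.75, adjusted p = 0.0311) and Prss2 did not (0.0617). The other 5 lie in the first quartile of accessibility, where the median over all windows was 0.37. The values of the other 5 ran from 0.24 for Try5 to 0.89 for Prss3 (adjusted p = 0.138), at 0.980 to 1.25 CPM in wildtype. These copies are much alike in sequence, and how reads with several matches were placed is not given in the sources used here, so the counts may be split between them. Trbc1, a constant-region gene of that receptor and the next tested window at higher coordinates, had 0.683 ± 0.121 and 1.33 ± 0.525 CPM (log2 difference 0.95, adjusted p = 0.162, overlapping window). Trbc1 passed as higher in limma-voom (1.34, adjusted p = 0.000626) and without knockout library 1 (1.203, adjusted p = 0.0183). Of the thymocyte markers, Cd8a (2.41 ± 0.398 to 4.38 ± 0.416 CPM, log2 difference 0.86, adjusted p = 0.00664) and Cd4 (2.34 ± 0.438 to 3.85 ± 0.566 CPM, 0.73, adjusted p = 0.0399) rose. Neither call was followed through the alternatives. Cd3e (0.02), Ptcra (0.10), Lck (0.17), Rag1 (0.27) and Cd28 (0.47, adjusted p = 0.0826) did not pass. For Cd28 all 3 knockout libraries lay above all 3 wildtype libraries. Whether thymocyte DNA contributed to the Prss2 value was not tested.

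Both carboxypeptidase genes had little accessibility in either group. Cpa1, which removes aromatic and aliphatic residues from the ends of peptides, had 1.54, 0.895 and 1.00 CPM in the wildtype and 1.09, 2.21 and 2.14 CPM in the knockout libraries (chromosome 6, 30636221 to 30641221). Knockout library 1 lay among the wildtype libraries. The log2 fold change was 0.65, with a wide interval of -0.21 to 1.502 (adjusted p = 0.295), and it passed in 2 of 15 alternatives: 0.90 without knockout library 1 (adjusted p = 0.0364) and 1.00 in limma-voom (adjusted p = 0.00254). Cpb1, which removes basic residues, had 1.37 ± 0.543 and 1.62 ± 0.607 CPM (chromosome 3, 20273729 to 20278729), a log2 fold change of 0.24 (interval -0.61 to 1.10, adjusted p = 0.728), and its groups overlapped.

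The lipase and its cofactor differed. Clps, whose product anchors lipase to fat droplets coated with bile salts, had the highest accessibility of the members, with 11.99, 9.97 and 11.93 CPM across wildtype and 5.85, 7.82 and 6.91 CPM in knockout libraries (chromosome 17, 28558714 to 28563714). No knockout library reached the lowest wildtype library. The means of 11.3 ± 1.15 and 6.86 ± 0.990 CPM differed 1.65-fold (log2 fold change -0.72, SE 0.156, adjusted p = 2.86e-05). It passed in 15 of 16 alternatives, and loess normalisation reduced it to -0.26 (adjusted p = 0.158). Pnlip, the lipase itself, showed 1.640, 1.598 and 1.536 CPM across wildtype and 1.605, 2.33 and 2.32 CPM in knockout libraries (chromosome 19, 58667365 to 58672365), with a log2 fold change of 0.39 (interval -0.37 to 1.15, adjusted p = 0.502).

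**Figure D2:**
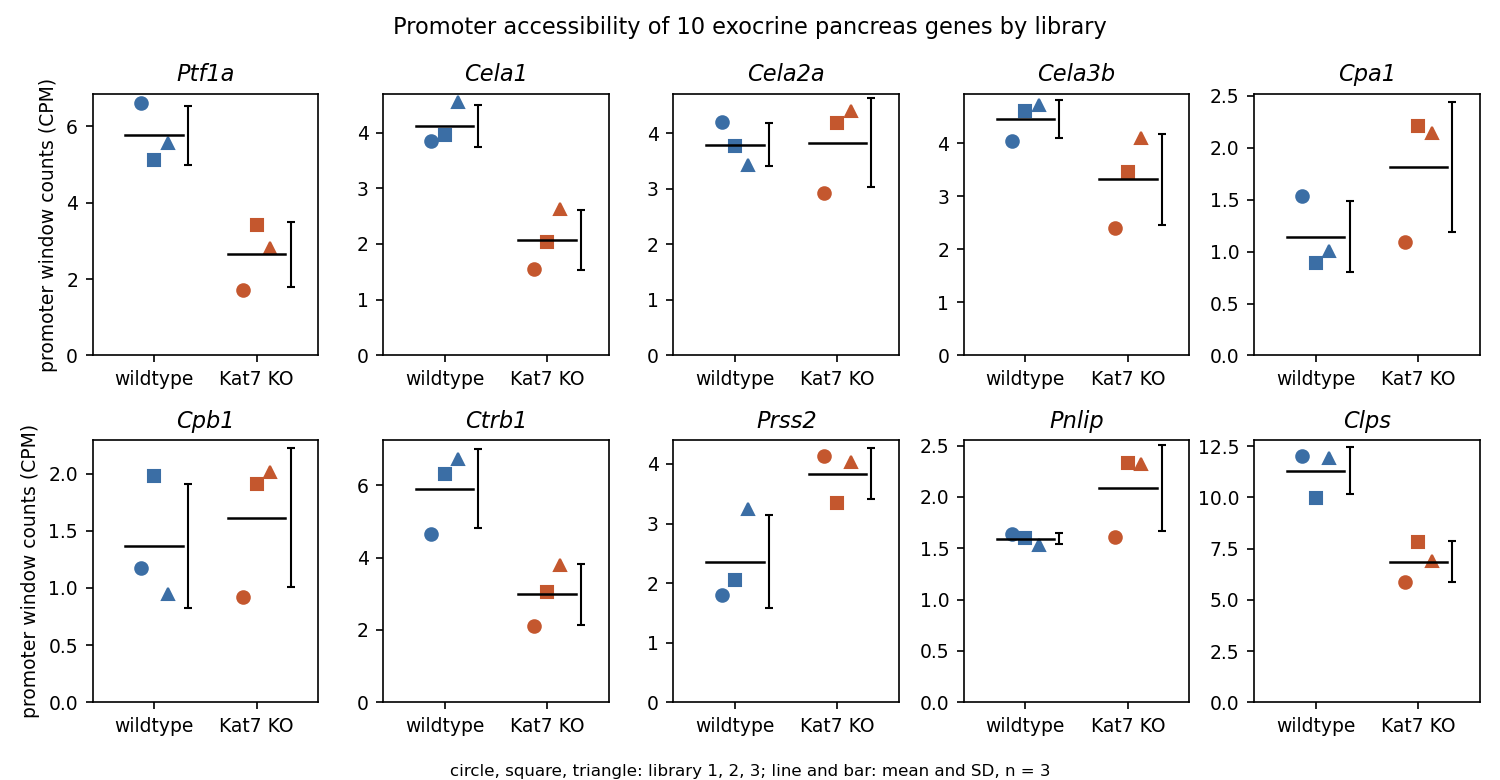
Accessibility in CPM of each member's promoter window, 1 panel per gene, in wildtype (blue) and Kat7 knockout (orange) libraries, with the mean and SD of 3 libraries. The groups are apart for Ptf1a, Cela1, Ctrb1, Clps and, in the opposite direction, Prss2, and they overlap in the other 5 panels.

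Groups that did not overlap were thus found in 5 members (38.2% of all tested windows), 4 with the knockout below (24.6%) and 1 with it above (13.5%). In the first quartile 5.37% and 8.33% of windows were apart in these directions, and in the second 40.3% and 8.11%. Per kilobase of window, wildtype levels ran from 0.229 CPM for Cpa1 to 2.26 CPM for Clps. From the highest, the order was Clps, Ptf1a (1.19), Ctrb1 (1.18), Cela3b (0.892), Cela1 (0.823), Cela2a (0.760), Prss2 (0.472), Pnlip (0.318), Cpb1 (0.274) and Cpa1. Wildtype libraries of neighbours in this order overlapped, other than between Clps and Ptf1a, between Cela2a and Prss2, and between Prss2 and Pnlip. The 4 members that fell were among the 5 with the highest wildtype levels, a description only, since the wildtype level is also part of the fold change.

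**Figure D3:**
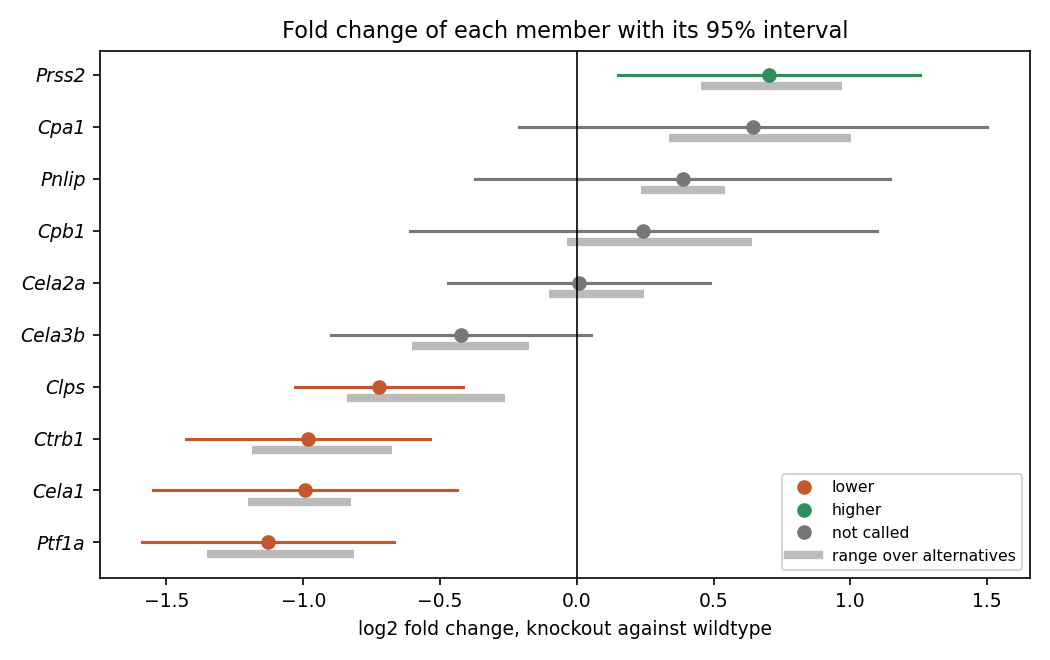
Log2 fold change of each member (point) with its 95% interval (line) and its range over the alternative analyses (grey bar), coloured by call. The intervals of Ptf1a, Cela1, Ctrb1 and Clps lie below 0, that of Prss2 above, and the remaining 5 include 0.

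Knockout library 1 gave the lowest value of all 6 libraries for 7 of the 10 members. The members' windows summed to 41.5, 40.3 and 43.7 CPM in wildtype libraries 1, 2 and 3, and to 24.3, 33.7 and 35.2 CPM in the knockout libraries. The median member lay -0.66 from the wildtype mean on the log2 CPM scale in knockout library 1, -0.11 in knockout library 2 and 0.05 in knockout library 3. Windows of like accessibility moved with it: the median window of the first quartile stood at -0.24, 0.53 and 0.64 in these libraries (-0.24 to 0.20 in wildtype), and that of the second quartile at -0.51, -0.21 and -0.13 (-0.07 to 0.08 in wildtype). Without knockout library 1, the same 4 members fell, with log2 fold changes of -0.90 for Ptf1a, -0.82 for Cela1, -0.79 for Ctrb1 and -0.62 for Clps, and the members' median was -0.04.

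Paralogues were compared within libraries by the log2 ratio of their CPM. The 4 pairs were chosen after their values were seen, so the p-values below are descriptive only. Cela1 stood 0.11 ± 0.26 above Cela2a in wildtype and -0.86 ± 0.14 from it in knockout, a shift of -0.98 with no overlap between groups (exact two-sided permutation p = 0.1, the smallest possible with 3 libraries per group, 0.133 adjusted over the 4 pairs). Ctrb1 against its relative Ctrl (overlapping window) shifted by -0.89 and Pnlip against the lipase-related Pnliprp2 by 1.48, both with groups apart and the same p-values. Pnlip lies in the first quartile of accessibility, where the median log2 fold change was 0.37, and Pnliprp2 in the second, where it was -0.27. Pnliprp2 itself fell from 7.96 ± 0.607 to 3.58 ± 0.371 CPM (log2 difference -1.15, adjusted p = 5.14e-08), and Pnliprp1, a further relative, had -0.53 (adjusted p = 0.233). Prss2 against Prss1 shifted by 0.24, and those groups overlapped (exact p = 0.7).

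The promoters next to the members on the chromosome were read in the same fit. Of 20 such windows, 1 on each side of a member and 1.77 to 104 kb away, 6 fell, none rose and 14 did not pass in edgeR, where 20.2% of all tested windows fell. Of the 8 beside members that fell, 5 fell, and of the 10 beside members that did not pass, 1 fell, a difference that was not tested. Those 5 stood at 25.4 to 35.2 CPM in wildtype. Beside members that did not pass, Cpa5, Cpa3, Agtr1b, 1810007D17Rik and 1810018F18Rik stood at 0.787 to 2.42 CPM in wildtype. The others there stood at 3.40 (Cela3a), 4.06 (1700013G24Rik), 43.9 (Cep41) and 51.5 (Casp9) CPM, and Ctrcos, which fell, at 4.75 CPM. Both neighbours of Ptf1a fell: Msrb2, a methionine sulfoxide reductase gene 69.0 kb away (27.8 ± 1.86 to 12.4 ± 1.39 CPM, log2 difference -1.16, adjusted p = 2.41e-19), and 4921504E06Rik, 104 kb away on the other side (-0.91, adjusted p = 6.94e-13). Cela1 lay between Galnt6, a glycosyltransferase gene (-1.34, adjusted p = 5.29e-24, overlapping window), and Smagp (-0.33, adjusted p = 0.0158), and both fell. Smagp did not pass in 6 of 16 alternatives, among them DESeq2 (0.110) and loess (0.332), and those that left out wildtype library 1 (0.0625) or, of the knockout libraries, the second (0.108) or the third (0.0653). Beside Ctrb1, Bcar1, an adaptor of cell adhesion signalling, fell (-0.94, adjusted p = 1.57e-14), while the window of gene identifier 100861890, which has no symbol, did not pass (-0.46). The neighbours of Clps, its relative Clpsl2 (-0.43, adjusted p = 0.232) and Lhfpl5 (-0.16), did not pass. Next to Cela2a, the antisense gene Ctrcos fell (-0.84, adjusted p = 0.00463; 0.287 without wildtype library 3, overlapping window) and Casp9 did not pass (0.17, overlapping window). The others did not pass in edgeR: Cela3a (-0.26) and 1700013G24Rik (-0.09) beside Cela3b, Cpa5 (0.09) and Cep41 (0.21) beside Cpa1, Cpa3 (0.72) and Agtr1b (-0.12) beside Cpb1, and 1810007D17Rik (1.10, adjusted p = 0.0742) and 1810018F18Rik (-0.24) beside Pnlip. In other settings 6 neighbours passed as higher. Casp9 did under loess (adjusted p = 0.0300) and under a mean-count minimum of 50 (0.0203), and Cep41 did in both of these (0.00206 and 0.00521) and with library totals (0.0383). In limma-voom Cpa3 (0.00405), 1810007D17Rik (0.000302), Prss1 and Trbc1 passed, and without knockout library 1 Cpa3 (0.0324), 1810007D17Rik (0.00230) and Trbc1 did. With the replicate block 1810007D17Rik passed (0.0200).

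**Figure D4:**
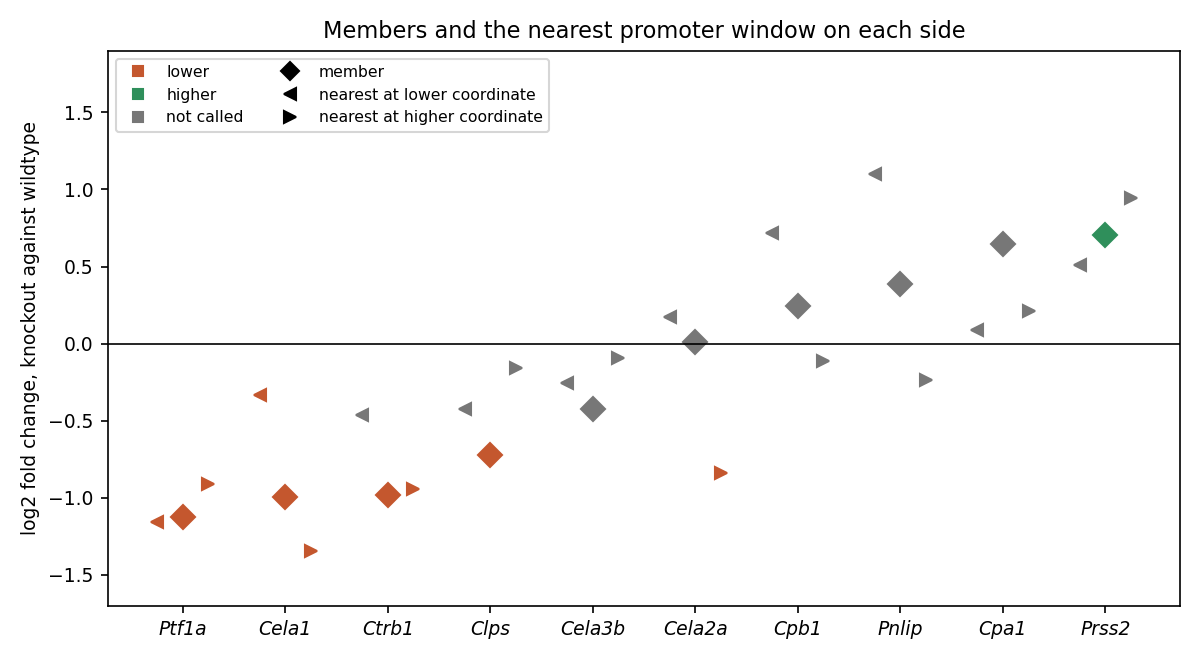
Log2 fold change of each member (diamond) and of the nearest tested window at lower (left triangle) and higher (right triangle) coordinates, coloured by call. Neighbours of Ptf1a and Cela1 fell on both sides, and those of Prss2, Cpa1, Cpb1 and Pnlip did not pass in edgeR.

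Over all tested windows, 20.2% fell and 6.36% rose. Beyond the members, most acinar secretory genes did not pass either. Of 29 others, 3 fell and none rose (edgeR; 2 rose under loess, 4 without knockout library 1 and 7 in limma-voom), with a median of 0.06. Those that fell were Rnase1, a pancreatic ribonuclease gene (29.6 ± 3.68 to 12.4 ± 1.66 CPM, log2 difference -1.26, adjusted p = 8.74e-23), Pnliprp2, given above, and Gp2, a zymogen granule membrane protein also found on microfold cells (8.31 ± 1.61 to 4.12 ± 0.559 CPM, -1.01, adjusted p = 8.26e-07). The other 26 had values from -0.53 to 0.89. The amylase and trypsinogen genes among them lie in the first quartile of accessibility, where 1.35% of windows fell and 2.26% rose.

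Among windows of acinar transcription factors, 13 were tested, of which 8 fell and 1 rose, with a median of -0.48. Of all tested windows, 20.2% fell and 6.36% rose. The median wildtype level was 40.2 CPM in this list and 2.16 CPM among the other secretory genes, and the difference between the lists' shares was not tested. Foxa3, whose window overlaps another, did not pass the count filter. The PTF1 subunit gene Rbpjl did not pass (11.4 ± 1.195 to 9.60 ± 1.04 CPM, log2 difference -0.24, adjusted p = 0.225, overlapping window), other than in limma-voom (-0.34, adjusted p = 0.0163). Tcf12, which encodes an E protein, rose (71.7 ± 4.74 to 95.9 ± 8.79 CPM, 0.42, adjusted p = 0.00218), and its values in the alternatives are not reported here. Tcf3, also an E protein gene (0.13, adjusted p = 0.507), and Rbpj (0.23, adjusted p = 0.190) did not pass. For Rbpj every knockout library lay above every wildtype library. Gata6, an endoderm factor of pancreas formation, fell from 36.4 ± 1.94 to 15.5 ± 1.40 CPM (-1.23, adjusted p = 1.28e-23). Prox1 (-1.05, adjusted p = 0.0251, overlapping window), Onecut1 (-0.88, adjusted p = 1.37e-10) and Gata4 (-0.70, adjusted p = 7.07e-09) fell as well, and Prox1 did not pass without wildtype library 1 (0.0759), 2 (0.120) or 3 (0.115) or knockout library 3 (0.0568). Bhlha15, which builds the secretory apparatus of acinar cells (-0.48, adjusted p = 0.000511), and Nr5a2, a nuclear receptor that sustains enzyme genes (-0.70, adjusted p = 0.00540), fell, but neither passed after loess normalisation (adjusted p = 0.447 and 0.109), and Nr5a2 did not pass without wildtype library 3 (0.0589) or knockout library 2 (0.0588).

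Genes that control secretion mostly did not pass either. Of 11 tested, 3 fell and none rose, with a median of 0.01, where 20.2% of all tested windows fell and 6.36% rose. Chrm3, the muscarinic receptor through which nerves trigger enzyme release, fell from 6.34 ± 0.986 to 2.08 ± 1.11 CPM (log2 difference -1.62, adjusted p = 3.03e-10). Sctr, the secretin receptor, fell from 6.33 ± 1.54 to 2.39 ± 0.655 CPM (-1.41, adjusted p = 1.82e-08), and Atp2c2, a calcium pump gene of the secretory pathway, fell too (-0.67, adjusted p = 1.02e-06; 0.0642 after loess normalisation).

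The other compartments of the pancreas set the members in context. Where 20.2% of all tested windows fell and 6.36% rose, 8 of 12 duct genes fell and 1 rose, with a median of -0.64. They included Prom1 (22.7 ± 1.09 to 6.11 ± 0.767 CPM, log2 difference -1.90, adjusted p = 1.08e-39), the carbonic anhydrase gene Car2 (-1.52) and Tff2 (-0.92), whereas Sox9 rose (0.37, adjusted p = 0.0143). Of 21 islet genes 5 fell and 1 rose, with a median of -0.14. Slc2a2, a glucose transporter gene (-1.09, adjusted p = 2.90e-05), Pax6 (-0.76, overlapping window; adjusted p = 0.104 after loess normalisation) and Nkx6-1 (-0.64) fell. Ins2 (-0.12, adjusted p = 0.846) and Pdx1 (-0.07, adjusted p = 0.927, overlapping window) did not pass. Wildtype medians were 24.4 CPM for the duct list and 5.73 CPM for the islet list, against 3.96 CPM for the members, so the lists stood at different accessibility, and the difference between their shares was not tested.

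**Figure D5:**
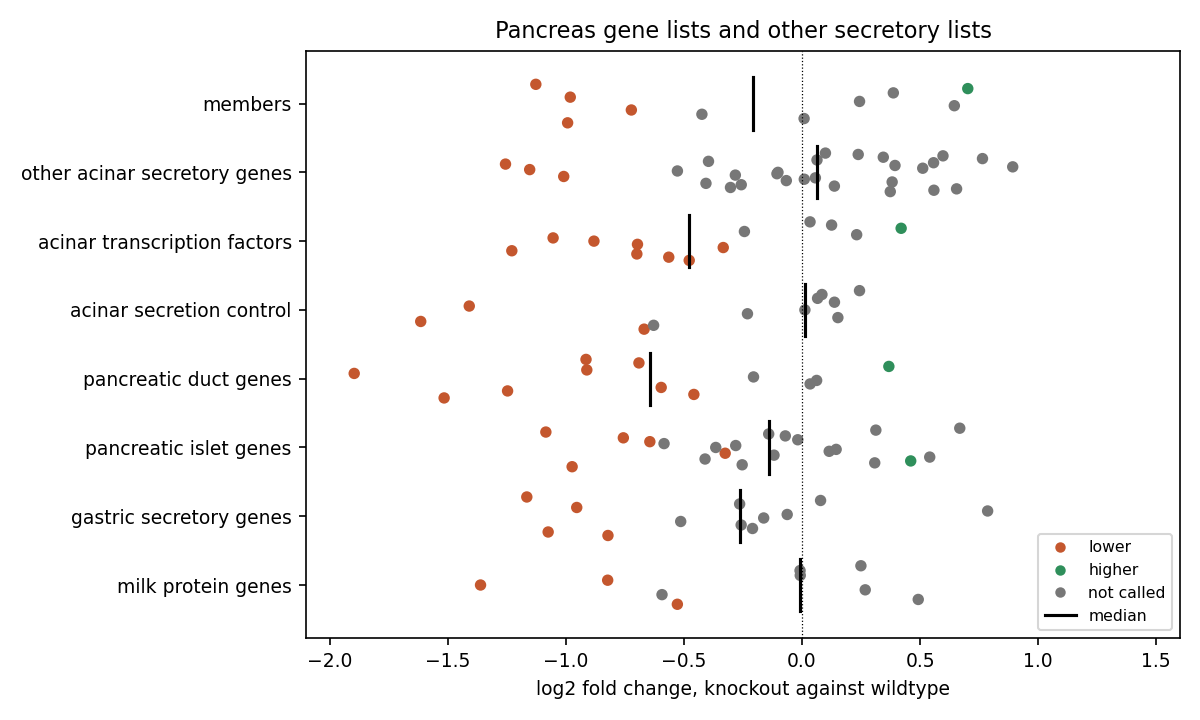
Log2 fold change (knockout against wildtype) of each tested gene in 8 lists, coloured by call, with the list's median as a black line. Medians run from -0.64 for pancreatic duct genes to 0.06 for other acinar secretory genes, with the members at -0.21.

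Over the 6 libraries, the profiles most like the members' mean profile among 86 windows of the pancreas lists were those of Rab27b, a secretory granule GTPase gene, Cela3a, the elastase gene beside Cela3b, and Neurod1, an islet factor. Their root mean square differences from it were 0.117, 0.121 and 0.1304 on the log2 CPM scale after centring, where the median window differed by 0.331. None of these 3 passed (log2 fold changes -0.23, -0.26 and -0.37).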

How the data were processed

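Whole-number counts per gene window, 1 window per gene, were deposited without normalisation, and the submitters' processing notes name featureCounts and mm10 for the steps the authors ran. GEO's fields list RNA as the molecule, whereas the protocol describes DNA. Reads were paired-end with 75 bases, per the design text. The aligner, the treatment of duplicates and any read shift were not given in the sources used here. Windows reached 3000 bases upstream and 2000 downstream of a gene start; the 10 members' windows share no base with another, and 6243 of 27095 windows do. Symbols came from the 6 per-sample tables, joined by gene identifier to the series table, whose counts they matched in all 6 libraries; a RefSeq table of GRCm38.p6 filled 16 of 1280 blanks. Of the list genes, Hbb-bt alone had no window.

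Windows were filtered with filterByExpr, scaled by TMM (factors 0.884 to 1.057) and tested with edgeR 4.0.16 in R 4.3.3 (robust glmQLFit and glmQLFTest, knockout against wildtype), with Benjamini-Hochberg adjustment over all 24817 tested windows at 0.05. Unless another tool is named, adjusted p-values are edgeR's. The script was checked on simulated counts. CPM divide counts by library totals times TMM factors, and log2 CPM used a prior count of 2. SE and 95% intervals come from the quasi-likelihood F statistic. Counting error alone is 26.7% of a count of 14 and 6.54% of a count of 234. Quartiles rank windows by mean log2 CPM.

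Alternatives were other scalings (library totals, DESeq2 size factors, loess), other count filters, DESeq2 1.42.0, limma-voom (limma 3.58.1) with sample weights, no robust shrinkage, the replicate number as a block, windows sharing no base, and each library left out. Named genes were all members, the nearest tested window on each side, in each list the called genes up to 4 with the largest change, and a few fixed factors (Rbpjl, Bhlha15, Nr5a2, Ins2, Pdx1, Kat7, Aire), and the 3 profiles nearest to the members'; some genes this rule names are not reported here. Others are named where a count or a cluster needed them and were chosen after their values were seen. The members and lists were chosen with earlier results of these data known.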

Additional observations from a re-analysis of the deposited data

How the results depend on the processing

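Across 16 alternatives the number of members that fell was 4, other than 3 after loess normalisation, where Clps was lost, and 3 without wildtype library 3, where Cela1 was lost. The number that rose was 1 in the analysis reported and 0 with library totals only, with no low-count filter, in DESeq2 and with only windows sharing no base, and 0 to 1 when single libraries were left out. In limma-voom and without knockout library 1 the member that rose was Cpa1. The members' median was -0.69 with a mean count of at least 50, a filter that removes Cpa1, Cpb1 and Pnlip, and -0.35 to -0.04 when single libraries were left out. Over all windows, 1578 rose, and 2937 did with library totals, 4318 with loess, 3937 with a mean count of at least 50, 4723 in limma-voom, 2824 with the replicate block and 689 to 3177 when single libraries were left out (689 without wildtype library 1, 3177 without knockout library 1). Kat7 ranged from -4.41 to -3.38 when single libraries were left out.

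Values that did not pass changed sign as follows. Cela2a was -0.020 with no filter, -0.0035 with the replicate block and -0.0025 with only windows sharing no base. After loess normalisation Cpb1 was -0.035, Rbpjl 0.22, Rab27b 0.23, 1700013G24Rik 0.15, Cpa5 -0.15 and Lhfpl5 0.30. In limma-voom Ins2 was 0.29, Pdx1 0.13, 1700013G24Rik 0.026, Agtr1b 0.092, 1810018F18Rik 0.070 and Lhfpl5 0.038. When single libraries were left out, Cela2a ran from -0.10 to 0.17, Ins2 from -0.45 to 0.26, Pdx1 from -0.34 to 0.13, 1700013G24Rik from -0.27 to 0.11, Cpa5 from -0.090 to 0.33, Agtr1b from -0.48 to 0.24 and 1810018F18Rik from -0.43 to 0.024. The cause was not tested.

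The labels do not state that replicate numbers pair the samples. Deviations of same-numbered libraries from their group means correlated at 0.37, 0.03 and 0.39 over windows. Knockout library 2 correlated best with wildtype library 3 (0.31). Whether the samples were paired was not tested. The replicate block left 4 members lower and 1 higher, with 5537 windows lower. With 14 to 39 counts per library, the intervals of Cpa1, Cpb1 and Pnlip reach past a 2-fold rise.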

Other observations

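Secretory genes of other organs, which mTECs also display as self-antigens, had both losses and windows that did not pass. Of 12 gastric secretory genes 4 fell and none rose (edgeR), with a median of -0.26, where 20.2% of all tested windows fell and 6.36% rose. Tff1, a mucosal trefoil peptide gene, fell from 8.31 ± 1.37 to 3.71 ± 0.536 CPM (log2 difference -1.17, adjusted p = 1.76e-08). Both subunit genes of the gastric proton pump fell, Atp4b from 22.5 ± 2.75 to 10.7 ± 0.614 CPM (-1.08, adjusted p = 1.65e-15) and Atp4a from 6.20 ± 1.11 to 3.51 ± 0.775 CPM (-0.82, adjusted p = 0.000741, overlapping window; 0.0664 without wildtype library 3). The mucin gene Muc5ac also fell (-0.95, adjusted p = 0.000688).

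Of 9 milk protein genes 3 fell and none rose, with a median of -0.01, beside the same 20.2% and 6.36% of all tested windows. The casein gene Csn2 fell from 16.1 ± 1.70 to 6.27 ± 0.145 CPM (log2 difference -1.36, adjusted p = 9.70e-19). Csn3, the kappa-casein gene, fell as well (-0.82, adjusted p = 0.000202; 0.0796 after loess normalisation), and so did Btn1a1, a gene of the milk fat globule membrane (-0.53, adjusted p = 2.10e-05). Whether these shares differ from the 4 of 10 among pancreatic genes was not tested.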
